A study of Mus musculus with 12 samples.

Results

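The 8 genes described here encode ligands, inhibitors and receptor chains of the IL-1 and IL-18 cytokine axis, out of 15986 genes with a row in the data. They were chosen by name, with earlier results of these data known. Their NCBI gene identifiers are 16175 (Il1a), 16176 (Il1b), 16173 (Il18), 16181 (Il1rn), 16178 (Il1r2), 16068 (Il18bp), 16180 (Il1rap) and 16174 (Il18rap). All 8 passed the filter on low counts, among 10802 genes tested. The cells were Ly6G+ neutrophils taken from mouse bone marrow with anti-Ly6G beads, from C57BL/6 wild-type animals or from animals labelled Rab27aKO. Rab27a encodes a small GTPase that brings secretory granules to the plasma membrane. From each genotype 3 libraries came from cells given 5 µM CpG-B (ODN 1826), a synthetic DNA that is sensed by TLR9, and 3 from cells kept without it, all for 6 h at 37C. The control condition is called vehicle in one label and untreated in another, and it is called unstimulated here. No source used here gives the knockout allele, the sex, age or number of the animals, or whether libraries of a group came from separate animals. The p-values therefore reflect only the spread between libraries, which may be technical.

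IL-1α and IL-1β bind the same receptor and drive inflammatory gene expression, while IL-18 acts through its own related receptor and is best known for inducing interferon-γ in lymphocytes. IL-1β and IL-18 are made as inactive precursors without a signal peptide and are cleaved by inflammasome proteases. The axis is braked at several points: the antagonist encoded by Il1rn occupies the IL-1 receptor without signalling, the decoy receptor encoded by Il1r2 binds IL-1 without signalling, and the secreted protein encoded by Il18bp captures IL-18.

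Levels are given as CPM, estimated counts scaled to a common library size, with means ± SD over 3 libraries. Levels of different genes are compared only in TPM, which also account for transcript length. Log2 fold changes are given with their standard errors (SE). Genes are called risen or fallen, or higher or lower, at an adjusted p of at most 0.05 in the quasi-likelihood test of edgeR, with p-values adjusted by the Benjamini-Hochberg method over all genes tested. Library totals ran from 10928823 to 15513280 estimated counts. As a check of the labels, Rab27a ranged from 207 to 335 CPM over the wild-type libraries and from 94.9 to 129 CPM over the knockout libraries, without overlap. None of 12 markers of mature neutrophils passed in any comparison. The 2 knockout libraries numbered 1 stood low and the 2 numbered 3 stood high for B cell and erythroid markers. Summed B cell markers were at 6.61 and 7.50 CPM against 92.5 and 104 CPM. Summed erythroid markers were 438 and 521 CPM in the libraries numbered 1 against 5960 and 6053 CPM in those numbered 3. Summed monocyte and macrophage markers, of which none of 15 was at 0, ran from 933 to 969 CPM in unstimulated and from 1408 to 1486 CPM in CpG-treated wild-type cells, and from 725 to 799 CPM and from 1441 to 1825 CPM in the knockout. In knockout libraries numbered 1, 2 and 3 these sums were 747, 725 and 799 CPM unstimulated. With CpG they were 1825, 1635 and 1441 CPM, highest in the library numbered 1. Csf1r and Adgre1 of that list rose with CpG in both genotypes, Ms4a7 and Vcam1 rose in the knockout, and Csf1r was higher in the knockout with CpG. Of the other cell lists, Hbb-bt was lower in the knockout in both treatments and Pf4 unstimulated, while Zbtb46 and Cd8a rose and Siglecf fell with CpG in the knockout. In these bulk samples fewer cells of a type and less RNA per cell cannot be told apart, and the part of other cells in the results below was not tested.

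The sequences just upstream of the start sites are shown for the genes that rose with CpG in both genotypes. They were read from RefSeq's GRCm38.p6 annotation, an earlier build than the GRCm39 named in the submitters' processing notes, and all 8 genes had an entry. Each is the 250 bases before a start site, printed 5′ to 3′ along the gene's own strand, and capitals mark a match to TATAAA (the TATA box) or TGANTCA (the AP-1 motif), searched on both strands. Il1rn has start sites far apart, so its first and a downstream one are both shown.
Il1a, chr2:129309973-129310222, minus strand: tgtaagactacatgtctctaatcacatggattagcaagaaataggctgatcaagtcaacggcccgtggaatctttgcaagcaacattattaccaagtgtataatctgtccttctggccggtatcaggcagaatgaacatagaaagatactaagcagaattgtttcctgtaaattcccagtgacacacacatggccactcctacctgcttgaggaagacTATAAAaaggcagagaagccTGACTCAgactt
Il1b, chr2:129371140-129371389, minus strand: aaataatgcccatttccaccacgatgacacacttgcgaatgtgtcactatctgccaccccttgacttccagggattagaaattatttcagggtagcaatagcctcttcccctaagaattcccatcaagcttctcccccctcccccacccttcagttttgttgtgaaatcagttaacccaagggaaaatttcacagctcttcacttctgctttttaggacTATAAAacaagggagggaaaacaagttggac
Il1rn first start, chr2:24336610-24336859, plus strand: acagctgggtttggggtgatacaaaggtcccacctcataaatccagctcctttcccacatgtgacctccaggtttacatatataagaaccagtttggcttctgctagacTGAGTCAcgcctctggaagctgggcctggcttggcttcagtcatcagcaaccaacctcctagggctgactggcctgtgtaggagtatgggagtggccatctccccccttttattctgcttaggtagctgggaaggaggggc
Il1rn downstream start, chr2:24345041-24345290, plus strand: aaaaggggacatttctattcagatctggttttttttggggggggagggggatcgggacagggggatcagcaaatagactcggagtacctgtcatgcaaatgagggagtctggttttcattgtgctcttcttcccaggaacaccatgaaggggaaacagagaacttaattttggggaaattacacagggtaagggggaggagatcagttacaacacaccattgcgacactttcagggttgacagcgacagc
The Il1a window held a TATA box and an AP-1 match, the Il1b window a TATA box, and the first Il1rn window an AP-1 match. The downstream Il1rn window held neither. Of the windows not printed, that of Il18, a gene that did not rise with CpG, held TATAAA, and the rest held neither motif. Of 32851 promoter windows of this length, 12.4% held TATAAA and 6.75% held TGANTCA. Searches for the NF-kB motif by name (7.25% of windows) and for an interferon response motif of GAAA, any 2 bases and GAAA (2.98% of windows), found no match in any of the 10 windows of the 8 genes. Each motif, that of NF-kB included, was searched as a single fixed pattern, and near matches were not counted. A match is a run of letters and not a measured site, and a missing one says only that those letters are not in that window.

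CpG raised 3 of the 8 genes in wild-type cells and 4 in knockout cells, while 1 fell in the knockout. The background share was 6.04% of all genes called in wild-type (4.74% higher, 1.30% lower) and 11.6% in knockout cells (7.57% higher, 4.06% lower). Because the 8 genes and the lists below were chosen with earlier results known, counts set beside such shares are not a test of them. Il1a, Il1b and Il1rn rose in both genotypes, Il18bp rose and Il18 fell in the knockout. The median log2 fold change of the 8 genes was 0.05 in wild-type and 0.37 in knockout cells, beside -0.01 over all genes in each. CPM ranges of CpG-treated and unstimulated libraries did not overlap for 3 of the 8 genes in wild-type and 6 in knockout cells, beside 25.7% and 24.2% of all genes.

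**Figure D1:**
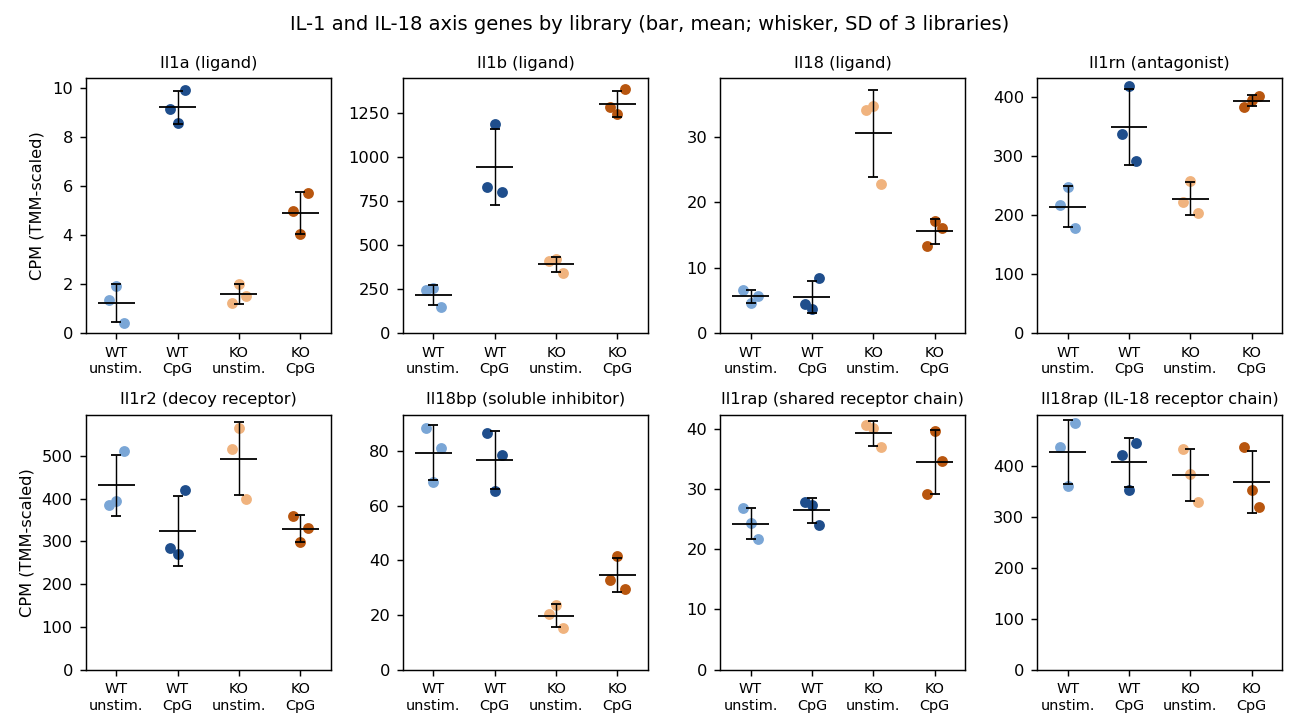
CPM of each of the 8 genes by library in the 4 groups (WT, wild-type; KO, Rab27a knockout; points, libraries numbered 1 to 3 from left to right; bar, mean; whisker, SD; linear axes from 0). Il1a and Il1b are high in the CpG groups, Il18 is high and Il18bp low in the knockout groups, and Il18rap is level across all 4.

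Il1a, whose product is active as a precursor and acts as an alarm signal from damaged cells, was the least abundant of the 8 in unstimulated cells. Its CPM was 1.37, 1.91 and 0.401 in unstimulated wild-type libraries (16 estimated counts in the first) and 9.16, 8.57 and 9.93 with CpG. In the knockout it was 1.23, 2.02 and 1.51 unstimulated and 4.97, 4.03 and 5.71 with CpG. Every CpG library was above every unstimulated one in both genotypes, and the wild-type CpG libraries stood above the knockout CpG libraries. The increase was 7.42-fold in wild-type (log2 2.89, SE 0.37, adjusted p = 2.00e-04, edgeR) and 3.07-fold in knockout cells (log2 1.62, SE 0.36, adjusted p = 0.00949, edgeR). With both knockout libraries numbered 1, or both numbered 3, left out, the knockout increase missed the threshold (edgeR adjusted p = 0.0689 and 0.0756). The knockout level with CpG was 1.88-fold under the wild-type level without passing the test (log2 -0.91, SE 0.32, edgeR adjusted p = 0.150), although it passed without the unstimulated wild-type library numbered 3 (edgeR adjusted p = 0.0459).

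Il1b, the gene of the main secreted IL-1 of myeloid cells, was among the most abundant of the axis. It was at 245, 255 and 148 CPM in unstimulated wild-type libraries and at 829, 1188 and 801 CPM with CpG. Knockout libraries were at 408, 419 and 341 CPM unstimulated and at 1279, 1240 and 1382 CPM with CpG. No pair of groups overlapped, so the order was unstimulated wild-type, unstimulated knockout, CpG-treated wild-type, CpG-treated knockout. It rose 4.35-fold in wild-type (log2 2.12, SE 0.21, edgeR adjusted p = 2.02e-05) and 3.34-fold in knockout cells (log2 1.74, SE 0.20, edgeR adjusted p = 5.93e-05). Unstimulated knockout cells were 1.80-fold above unstimulated wild-type cells (log2 0.85, SE 0.20, edgeR adjusted p = 0.0253). That genotype call was lost without the unstimulated wild-type library numbered 3 (edgeR adjusted p = 0.0725), the unstimulated knockout libraries numbered 1 (0.0899) or 2 (0.113), or both knockout libraries numbered 1 (0.09).

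Il18 was the ligand with the largest fold difference between genotypes in both treatments. Unstimulated wild-type libraries had 6.65, 4.55 and 5.61 CPM and those with CpG had 4.50, 3.67 and 8.38 CPM. Unstimulated knockout libraries had 34.1, 34.8 and 22.9 CPM and those with CpG had 13.4, 17.2 and 16.1 CPM. All knockout libraries were above all wild-type libraries, the wild-type groups overlapped, and the knockout CpG libraries lay under the unstimulated knockout libraries. Il18 was 5.46-fold higher in unstimulated knockout than wild-type cells (log2 2.45, SE 0.27, edgeR adjusted p = 6.85e-05) and 2.84-fold higher with CpG (log2 1.51, SE 0.27, edgeR adjusted p = 0.00492). With CpG it fell 1.96-fold in knockout cells (log2 -0.97, SE 0.25, edgeR adjusted p = 0.0223), and the estimate in wild-type cells was -0.03 (SE 0.28, edgeR adjusted p = 0.983). The knockout decrease was lost without the unstimulated knockout library numbered 1 (edgeR adjusted p = 0.0869) or 2 (0.103), the knockout CpG library numbered 1 (0.0642) or both knockout libraries numbered 1 (0.154).

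The deposited counts of Il18 were spread over 10 transcript models, most of them predicted rather than curated. The curated NM_001357221 was at 2.42, 1.30 and 4.47 TPM in unstimulated wild-type and 6.22, 16.4 and 11 TPM in unstimulated knockout libraries, and the other curated model, NM_008360, was at or under 1.17 TPM everywhere. None of the 8 Il18 transcripts that passed the filter on low counts passed the test in any comparison; NM_008360 and XM_036154615 were not tested. With counts of curated transcripts alone the genotype difference kept its direction but missed the threshold unstimulated (log2 1.88, edgeR adjusted p = 0.18) and with CpG (log2 1.48, edgeR adjusted p = 0.293), and so did the knockout CpG decrease (log2 -0.57, edgeR adjusted p = 0.723).

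Of the inhibitors, Il1rn was raised by CpG in both genotypes. Unstimulated libraries had 217, 248 and 178 CPM in wild-type and 222, 258 and 203 CPM in knockout cells. With CpG they had 338, 420 and 292 CPM and 384, 396 and 403 CPM. CpG-treated libraries lay above unstimulated ones in each genotype, and the genotypes overlapped in each treatment. The increase was 1.63-fold in wild-type (log2 0.71, SE 0.15, edgeR adjusted p = 0.0117) and 1.73-fold in knockout cells (log2 0.79, SE 0.15, edgeR adjusted p = 0.00326). The wild-type call was lost without the unstimulated library numbered 1 (edgeR adjusted p = 0.0516) or 3 (0.0612) or the CpG library numbered 2 (0.0722).

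The Il1rn counts came almost wholly from 2 transcripts whose start sites lie far downstream of the gene's first start. NM_001039701 (178 codons) encodes the form with a signal peptide, which is secreted, and starts 8457 bases after the first start in the GENCODE annotation of GRCm38. Its TPM was 55.2, 72.2 and 49.0 in unstimulated and 125, 177 and 101 in CpG-treated wild-type libraries, and 68.6, 84.7 and 78.6 and then 131, 171 and 173 in the knockout. Every CpG library was above every unstimulated library. It rose 2.27-fold in wild-type (log2 1.19, SE 0.19, edgeR adjusted p = 0.0172 over 29643 transcripts) and 2.20-fold in knockout cells (log2 1.14, SE 0.19, edgeR adjusted p = 0.0122), beside 1.03% and 2.16% of all transcripts called.

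NM_001159562 (162 codons, starting 8435 bases after the first start) was at 74.3, 78.8 and 50.4 TPM unstimulated and 77.5, 78.7 and 59.0 TPM with CpG in wild-type cells, and at 70.1, 72.7 and 58.5 TPM and then 75.7, 62.6 and 79.1 TPM in the knockout. These groups overlapped, with log2 fold changes of 0.08 (SE 0.17, edgeR adjusted p = 1.00) and 0.23 (SE 0.17, edgeR adjusted p = 0.789). NM_031167 (159 codons), which starts at the first start and encodes an intracellular form, was at or under 0.940 TPM in all 12 libraries. Of the Il1rn windows printed above, the one with the AP-1 match lies before the gene's first start, and the one without a match before a downstream start. A further downstream window, not printed, also held no match. These windows follow RefSeq and the transcript starts follow GENCODE, and downstream windows were not matched to transcripts. NM_001039701 took 46.4% of Il1rn TPM in unstimulated and 64.5% in CpG-treated wild-type cells, and 53.5% and 68.2% in the knockout, with no overlap by treatment in either genotype. Reads shared between transcripts were divided by estimation, so transcript levels and shares carry an assignment error that was not measured. In an exact permutation test of treatment within genotype (two-sided, 6 against 6 libraries, 3 measures tested, chosen after the data were seen) the mean rise of 16.4 percentage points had p = 0.005, the smallest that 400 arrangements can give, and an adjusted p of 0.00750. That test took the libraries as unpaired, although their numbers may pair them, and its p holds only for unpaired libraries. Within 1 genotype the exact p was 0.1, the smallest that 3 against 3 libraries allow. The unstimulated share was 7.03 percentage points higher in the knockout without overlap (exact permutation p = 0.1), and the groups overlapped with CpG.

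**Figure D2:**
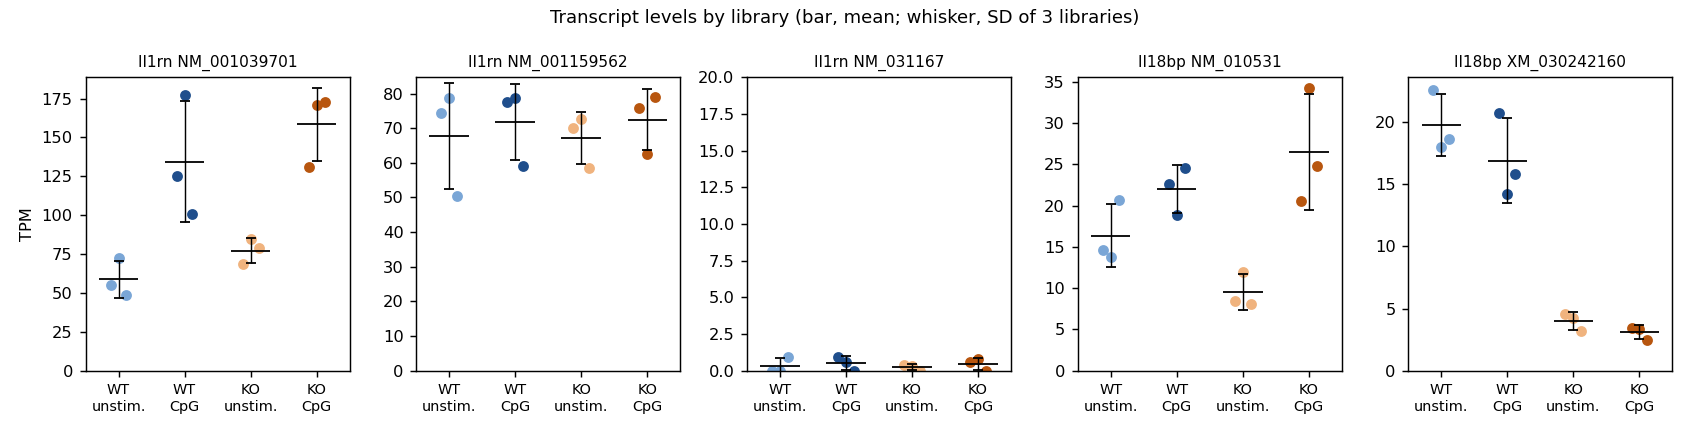
TPM of 3 Il1rn and 2 Il18bp transcripts by library in the 4 groups (points, libraries; bar, mean; whisker, SD; linear axes from 0 with their own ranges). NM_001039701 is higher in the CpG groups while NM_001159562 is level, NM_031167 stays at or under 0.940 TPM, and XM_030242160 is low in both knockout groups.

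Set against its ligand, the antagonist transcript was lower after CpG. The Il1rn to Il1b ratio in TPM was 0.453, 0.497 and 0.597 in unstimulated wild-type and 0.207, 0.179 and 0.184 in CpG-treated wild-type libraries. In the knockout it was 0.277, 0.313 and 0.300 and then 0.152, 0.152 and 0.147. No 2 groups overlapped. The ratio with CpG was 2.70-fold lower in wild-type and 1.97-fold lower in knockout cells. The mean log2 difference of -1.21 within genotype had an exact permutation p of 0.005, again the smallest possible (adjusted p = 0.00750, 3 measures). Here too the libraries were taken as unpaired. Between genotypes it was 1.73-fold lower in unstimulated and 1.26-fold lower in CpG-treated knockout cells, each with an exact permutation p of 0.1, the smallest possible, and 0.114 after adjustment over 8 ratio tests.

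Il1r2, the decoy receptor, was the most abundant of the 8 in unstimulated wild-type cells by TPM (475) and did not pass the test in any comparison. Its CPM was 386, 394 and 512 in unstimulated and 284, 271 and 419 in CpG-treated wild-type libraries, which overlapped. In the knockout it was 515, 565 and 399 and then 360, 299 and 331, without overlap. Log2 fold changes with CpG were -0.41 in wild-type (SE 0.18, edgeR adjusted p = 0.282) and -0.58 in knockout cells (SE 0.18, edgeR adjusted p = 0.0578). With the replicate number as a block within genotype, the wild-type difference of -0.42 passed (edgeR adjusted p = 0.017), in a fit that called 1824 genes in place of 652. It also passed without the wild-type CpG library numbered 3 (edgeR adjusted p = 0.0438). The knockout decrease passed in 10 of 24 alternatives, DESeq2 among them (edgeR or DESeq2 adjusted p from 0.00196 to 0.239 over all of them).

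For Il18bp, each knockout library lay under all of the wild-type ones. Wild-type libraries had 88.5, 68.7 and 81.2 CPM unstimulated and 86.6, 65.3 and 78.5 CPM with CpG. Knockout libraries had 20.5, 23.7 and 15.2 CPM unstimulated and 32.9, 41.8 and 29.6 CPM with CpG. The treatments overlapped in wild-type but not in knockout cells. Il18bp was 4.01-fold lower in unstimulated knockout cells (log2 -2.01, SE 0.18, edgeR adjusted p = 1.32e-05) and 2.21-fold lower with CpG (log2 -1.14, SE 0.17, edgeR adjusted p = 0.00136). With CpG it rose 1.76-fold in knockout cells (log2 0.81, SE 0.18, edgeR adjusted p = 0.00874), beside an estimate of -0.05 in wild-type cells (SE 0.17, edgeR adjusted p = 0.955).

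The 2 main Il18bp transcripts differed in where they moved, with the same unmeasured assignment error as for Il1rn transcripts. The predicted XM_030242160 was at 22.6, 18.0 and 18.6 TPM unstimulated and 20.7, 14.2 and 15.8 TPM with CpG in wild-type cells, against 4.54, 4.27 and 3.20 TPM and then 3.44, 3.39 and 2.44 TPM in the knockout. It was lower in the knockout without CpG (log2 -2.43, SE 0.22, edgeR adjusted p = 6.20e-04, beside 0.870% of transcripts called) and with it (log2 -2.44, SE 0.22, edgeR adjusted p = 7.44e-04, beside 0.702%). It did not pass for CpG in either genotype. The curated NM_010531 (193 codons) was at 14.6, 13.8 and 20.7 TPM and then 22.6, 18.8 and 24.5 TPM with CpG in wild-type cells, and at 8.41, 12 and 8.10 TPM and then 20.5, 34.2 and 24.8 TPM in the knockout. It rose with CpG in the knockout (log2 1.55, SE 0.26, edgeR adjusted p = 0.0123) and did not pass between genotypes (log2 -0.90 unstimulated, edgeR adjusted p = 0.248, and 0.22 with CpG, edgeR adjusted p = 1.00). The share of Il18bp TPM on NM_010531 was also among the 3 measures of the permutation test within genotype. Its mean rise with CpG of 13.3 percentage points had an exact permutation p of 0.0150 (adjusted p = 0.0150), with libraries taken as unpaired. By treatment these shares overlapped in wild-type but not in knockout cells. Counted from curated transcripts alone, Il18bp stayed lower in unstimulated knockout cells (log2 -1.01, edgeR adjusted p = 0.0303), but with CpG the estimate turned to 0.09 (edgeR adjusted p = 0.904). The genotype difference of the whole gene with CpG thus rests on predicted transcripts.

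The Il18bp to Il18 ratio in TPM had group means of 6.70 (unstimulated) and 7.97 (CpG) for wild-type cells and of 0.390 and 1.68 for the knockout. It was 17.2-fold lower in unstimulated and 4.49-fold lower in CpG-treated knockout cells, without overlap (exact permutation p = 0.1 each, the smallest possible, and 0.114 after adjustment over 8 tests). From curated transcripts alone it was 8.05-fold lower unstimulated, without overlap, and 3.20-fold lower with CpG, where the groups overlapped (exact permutation p = 0.2). With CpG it was 4.30-fold higher in knockout cells without overlap (exact permutation p = 0.1), and the wild-type groups overlapped (exact permutation p = 0.700).

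**Figure D3:**
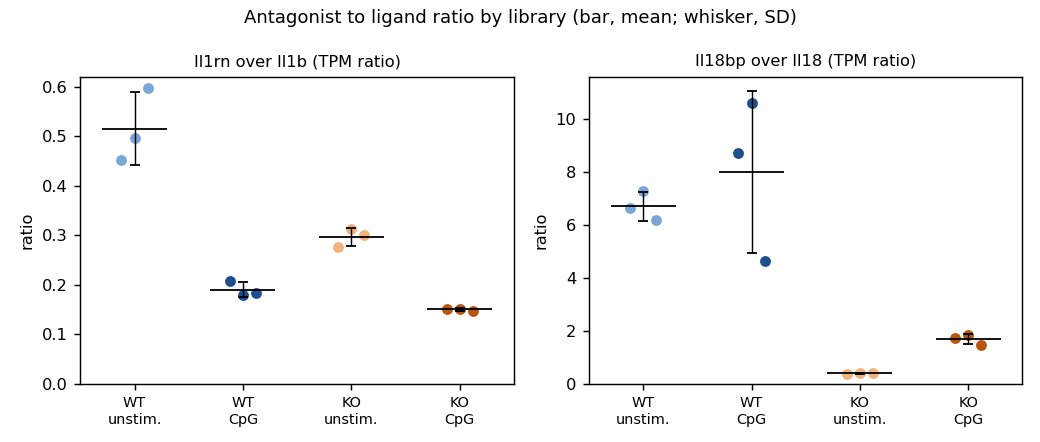
Ratio of antagonist to ligand TPM by library, for Il1rn over Il1b (left) and Il18bp over Il18 (right), in the 4 groups (points, libraries; bar, mean; whisker, SD; linear axes from 0). The Il1rn to Il1b means are 0.515, 0.190, 0.297 and 0.150 from left to right, and the Il18bp to Il18 ratio is low in both knockout groups.

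Among the receptor chains, Il1rap encodes the signalling partner shared by the IL-1, IL-33 and IL-36 receptors. It was at 26.8, 24.3 and 21.7 CPM in unstimulated wild-type and 40.7, 40.1 and 36.9 CPM in unstimulated knockout libraries. With CpG it was at 27.8, 27.4 and 24.1 CPM and 29.1, 39.7 and 34.6 CPM. The genotypes did not overlap in either treatment, and the CpG-treated and unstimulated libraries overlapped in each genotype. It was 1.62-fold higher in unstimulated knockout cells (log2 0.69, SE 0.13, edgeR adjusted p = 0.00541) and did not pass with CpG (log2 0.38, SE 0.13, edgeR adjusted p = 0.123). Most of its TPM lay on NM_008364 (570 codons, the membrane form), at 7.28, 6.26 and 5.01 TPM in unstimulated wild-type and 11.3, 11.1 and 11.3 TPM in unstimulated knockout libraries, and that transcript alone missed the threshold (log2 0.74, SE 0.16, edgeR adjusted p = 0.0836). NM_134103 (360 codons, the soluble form) ran from 1.36 to 3.23 TPM over all 12 libraries.

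Il18rap, the accessory chain of the IL-18 receptor, passed in no comparison. Group means were 427 ± 62.6 and 406 ± 48.3 CPM in unstimulated and CpG-treated wild-type cells and 382 ± 51.5 and 368 ± 60.8 CPM in the knockout, with every comparison overlapping. Its log2 fold changes ran from -0.16 to -0.05 over the CpG and genotype comparisons (edgeR adjusted p from 0.668 to 0.918). The ligand-binding chain Il18r1 was at 15.2 ± 4.28 CPM in unstimulated wild-type cells, and Il1r1, the signalling IL-1 receptor, was at 0.556 ± 0.213 CPM there and was not tested.

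Between genotypes, 4 of the 8 genes passed unstimulated, 3 higher and 1 lower in the knockout, beside 4.75% of all genes (2.11% higher, 2.64% lower). With CpG 2 passed, 1 in each direction, beside 3.92% (1.70% higher, 2.21% lower). CPM ranges did not overlap for 4 of the 8 unstimulated and for 5 with CpG, beside 25.0% and 20.4% of all genes. The median log2 difference was 0.28 unstimulated and 0.10 with CpG, beside -0.01 and -0.00 over all genes. The CpG and genotype comparisons share groups, so their values are given side by side and are not independent of each other.

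**Figure D4:**
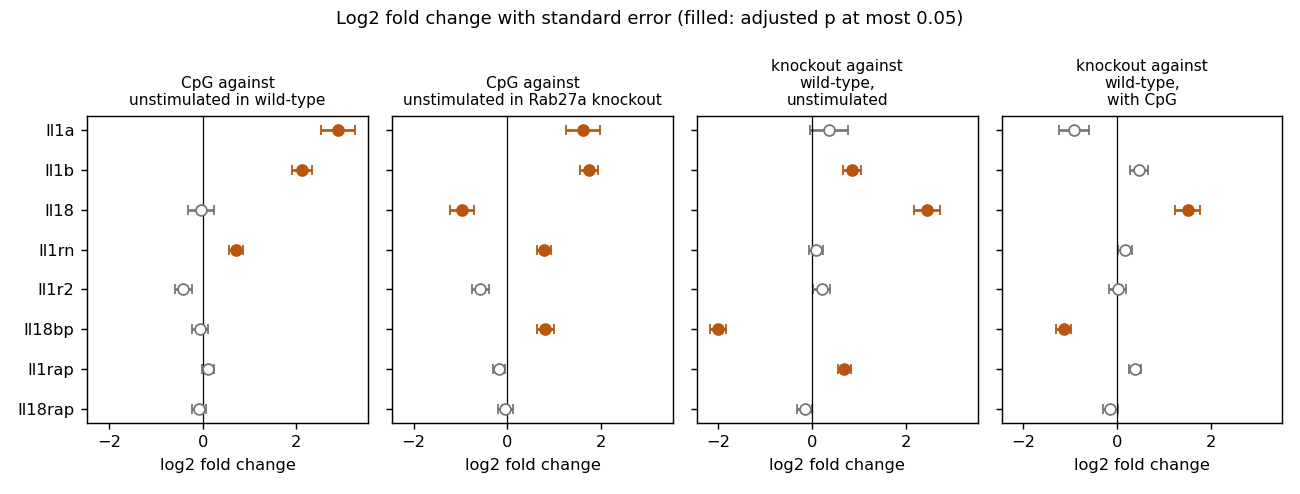
Log2 fold change (x axis) with SE for each of the 8 genes in 4 comparisons, positive where the CpG-treated or knockout cells are higher; filled points have an adjusted p of at most 0.05 in edgeR's quasi-likelihood test. Il1a, Il1b and Il1rn are filled in both CpG comparisons, and Il18 and Il18bp are filled on opposite sides of 0 in both genotype comparisons.

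Whether the response to CpG itself differed between genotypes was tested as an interaction, and 0 of the 8 genes passed (edgeR, beside 0% of all genes). Il18bp, Il18 and Il1a were the 3 with an unadjusted p under 0.05. Their interaction estimates were 0.86 (SE 0.25) for Il18bp, -0.94 (SE 0.38) for Il18 and -1.27 (SE 0.52) for Il1a on the log2 scale, each with an edgeR adjusted p of 1.000. Over all genes 365 were at an unadjusted p under 0.05, and DESeq2 called 3 genes. With the replicate number as a block within genotype 13 genes passed, Il18bp among them (log2 0.87, edgeR adjusted p = 0.0408). Deviations of same-numbered knockout libraries from their group means correlated at 0.619, 0.085 and 0.678, so pairing of those numbered 2 is unsure. Without that block, responses that passed in the knockout and not in wild-type cells, those of Il18 and Il18bp, were thus not shown to differ between them.

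Ranked by TPM, unstimulated wild-type cells had Il1r2 (475) above Il1b (253), then Il1rn (127) and Il18rap (123), which overlapped, then Il18bp (41.6), Il1rap (8.23), Il18 (6.27) and Il1a (0.933). With CpG Il1b stood first in both genotypes, at 1096 TPM in wild-type and 1537 TPM in knockout cells, above Il1r2 at 356 and 365 TPM. In unstimulated knockout cells Il1r2 (583) and Il1b (488) overlapped, Il18 was the fifth at 34.9 TPM, and Il1rap (14.1) and Il18bp (13.7) overlapped. Il1a (6.91) and Il18 (6.37) overlapped in CpG-treated wild-type cells, and Il18 (18.0) was above Il1rap (11.5) and Il1a (3.70) in CpG-treated knockout cells.

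Genes next to Il18 and Il18bp in RefSeq's gene order also differed between genotypes. Il18 lies on chromosome 9, as does Rab27a, with 146 tested genes between them of 596 tested on that chromosome. Of the 10 nearest tested genes, 3 were higher in unstimulated knockout cells (the third, Nkapd1, by 0.45 on the log2 scale) and 2 with CpG, beside 2.11% and 1.70% of all genes. Drd2, a dopamine receptor gene, was almost without counts in wild-type cells and higher in the knockout in both treatments, at 0.0489 against 5.71 CPM unstimulated (edgeR adjusted p = 6.52e-06) and 0.108 against 5.10 CPM with CpG (edgeR adjusted p = 1.49e-05). Bco2, a carotenoid-cleaving enzyme gene, was at 1.63 CPM in wild-type and 14.4 CPM in knockout cells unstimulated (log2 3.14, SE 0.28, edgeR adjusted p = 1.30e-05) and higher with CpG too (log2 2.16, SE 0.28, edgeR adjusted p = 3.35e-04). Bco2 lies directly beside Il18 on the opposite strand and overlaps it by 355 bases in the GENCODE annotation of GRCm38. Tex12, also on the opposite strand, overlaps Il18 by 4507 bases and was not tested. No source used here says whether the libraries kept strand, so reads of Il18 and these genes cannot be told apart with certainty.

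Il18bp lies on chromosome 7, away from Rab27a, and 3 of its 10 nearest tested genes passed in both treatments, beside 4.75% of all genes called unstimulated and 3.92% with CpG. Inppl1, a phosphoinositide phosphatase gene, was higher in the knockout (log2 3.38, SE 0.23, edgeR adjusted p = 8.27e-07 unstimulated, and 3.39, SE 0.22, edgeR adjusted p = 6.68e-07 with CpG). Lrrc51 was higher (log2 2.61 and 2.20, edgeR adjusted p = 0.00651 and 0.0203), and Lamtor1, a lysosomal scaffold gene, was lower (log2 -0.56 and -0.47, edgeR adjusted p = 0.0139 and 0.0443). Numa1 overlaps Il18bp by 80 bases on the opposite strand. Near Il1a and Il1b, which lie beside each other, Slc20a1, a phosphate transporter gene, was higher in unstimulated knockout cells (log2 0.91, SE 0.23, edgeR adjusted p = 0.0388), and none passed near Il1rn, Il1r2, Il1rap or Il18rap in either genotype comparison, nor near Il1a and Il1b with CpG.

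**Figure D5:**
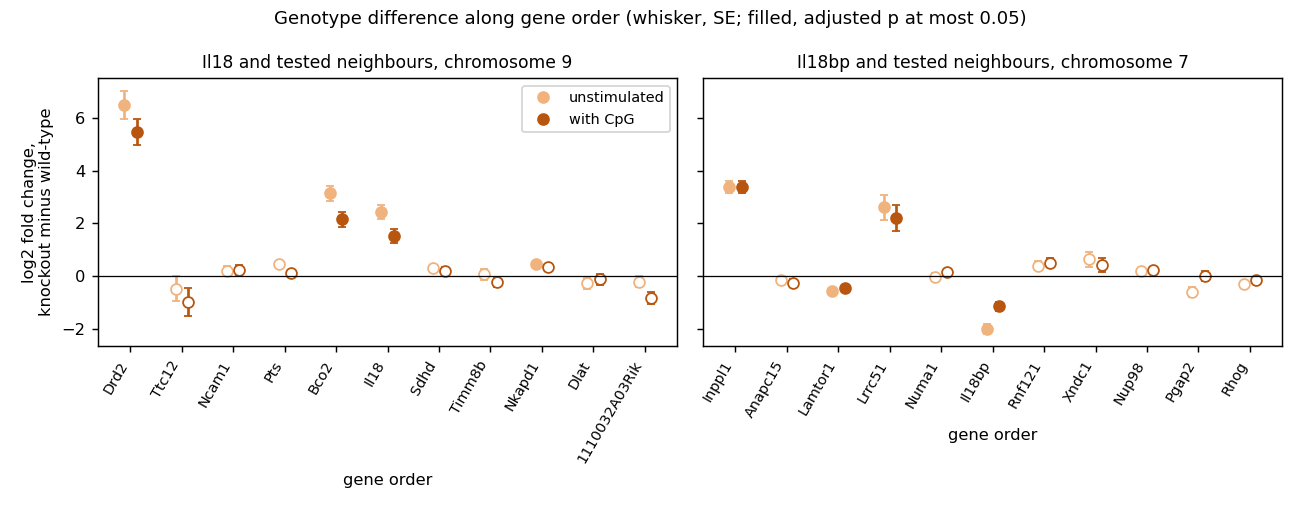
Log2 difference between knockout and wild-type (y axis, whiskers SE) for Il18 and Il18bp with the 5 tested genes on each side in gene order (x axis, not to genomic scale), unstimulated and with CpG; filled points have an adjusted p of at most 0.05 in edgeR's quasi-likelihood test. Drd2 and Bco2 on the left and Inppl1 and Lrrc51 on the right lie above 0 in both treatments.

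Of the other IL-1 family ligands and receptors, 9 of 17 listed symbols were in the data and 5 were tested. The list held both older and newer symbols of the IL-36 genes Il36a, Il36b, Il36g and Il36rn, so it names fewer genes than symbols. Il1f9, which encodes IL-36γ, rose with CpG from 309 ± 68.0 to 628 ± 112 CPM in wild-type (log2 1.02, SE 0.18, edgeR adjusted p = 0.00272) and from 302 ± 44.7 to 634 ± 71.5 CPM in knockout cells (log2 1.07, SE 0.18, edgeR adjusted p = 0.00117). The other 4 passed in no comparison, and none of the 5 passed between genotypes.

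The listed genes for processing and release of IL-1 and IL-18 were all tested. In wild-type cells 5 of 21 rose with CpG, beside 4.74% of all genes, and none fell, beside 1.30%: the inflammasome sensors Nlrc4 (log2 2.57), Mefv (2.39) and Nlrp3 (1.06) and the proteases Casp4 (2.06) and Casp1 (0.93), with edgeR adjusted p from 6.01e-07 to 0.0296. In knockout cells 6 rose and 1 fell, beside 7.57% and 4.06% of all genes. The increases were led by Casp4 (3.04), Mefv (2.90) and Nlrc4 (2.75), and Ninj1, which ruptures the membrane of dying cells, rose by 0.98 (edgeR adjusted p = 0.00538). Nlrp1b, another sensor, fell by 0.97 there (SE 0.24, edgeR adjusted p = 0.0170). Between genotypes unstimulated, Nlrp1b (log2 1.94) and Nek7 (0.42), a partner of NLRP3, were higher in the knockout, and Nlrp1a, Casp4 (-0.73) and Nlrp3 (-0.65) were lower, beside 2.11% of all genes higher and 2.64% lower. That count of 5 went down to 2 or 3 in 8 alternatives, among them leaving out the unstimulated wild-type library numbered 1 or any 1 of the unstimulated knockout libraries (2 genes each). With CpG, Nlrp1b (1.38) was higher and Nlrp1a lower, beside 1.70% and 2.21% of all genes, a count of 2 that became 1 without the wild-type CpG library numbered 1. Nlrp1a ran from 5.07 to 5.97 CPM in unstimulated wild-type libraries and was at or under 0.527 CPM in all knockout libraries. Mean Nlrp1b was 5.90 CPM in wild-type and 22.7 CPM in knockout cells unstimulated, and 4.42 and 11.6 CPM with CpG. Whether reads of Nlrp1a and Nlrp1b were exchanged in the counting was not tested.

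Of 15 genes for signalling from the IL-1 receptor, 4 rose with CpG in each genotype, beside 4.74% of all genes in wild-type and 7.57% in knockout cells, and none fell. They were Irak3, an inhibitor of the pathway (log2 1.70 in wild-type and 2.26 in knockout cells), Nfkbiz, a nuclear IκB protein (1.34 and 1.41), Myd88, the adaptor shared with TLR9 (0.75 and 1.19), and Irak2, a kinase (0.45 and 0.38), with edgeR adjusted p from 4.60e-07 to 0.0328. None passed between genotypes. The median log2 fold change of the 15 with CpG was 0.08 in wild-type and 0.12 in knockout cells, and that of the 21 processing genes was 0.08 and -0.02, beside -0.01 over all genes.

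The genes whose log2 CPM followed each ligand most closely over the 12 libraries are named as a description, since group and depth are shared by all genes of a library. Closest to Il1b were Il10rb (Pearson r = 0.991), Tnfrsf1b (0.989) and Cd14 (0.981). Closest to Il1a were Cxcl2 (0.942), Fth1 (0.923) and Rbbp7 (0.913), and closest to Il18 were Fam169b (0.958), Nhlrc2 (0.957) and Cspp1 (0.956). For Il1rn they were Tnfrsf8 (0.984), Osbpl3 (0.977) and Ninj1 (0.966), the last also on the list of release genes.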

How the data were processed

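PolyA RNA of 12 libraries (4 groups of 3) was sequenced on a Illumina HiSeq instrument, per the labels' protocols. The authors made estimated counts for each RefSeq transcript, used here as deposited; TPM were scaled by the authors, per the file headers. The submitters' processing notes list Bowtie2, RSEM 1.2.28 and GRCm39; no source used here gives strandedness. Here counts were summed over the 54716 transcripts per NCBI gene and rounded. Genes were filtered with filterByExpr, scaled by TMM and tested with the quasi-likelihood test of edgeR 4.0.16 (R 4.3.3) with one mean per group over all 12 libraries (8 residual degrees of freedom, coefficient of variation 17.1%), on simulated data first. DESeq2 1.42.0, other scalings and filters, curated transcripts alone, the replicate number as a block (within genotype, its genotype effects came from limma 3.58.1) and leaving out libraries were alternatives. Named were all 8 genes, Rab27a, the called pathway genes with the 3 highest and 2 lowest changes, neighbours called in both genotype comparisons, and the 3 genes most like each of 4 members. Nkapd1, Slc20a1, Il1r1, Il18r1 and overlapping genes were added after their values were seen. Members and lists were chosen with earlier results of these data known. Same-numbered libraries' deviations correlated at 0.279, 0.408 and 0.437 in wild-type and at 0.619, 0.085 and 0.678 in the knockout. Each was the highest value for both of its libraries, so the numbers may pair libraries. The knockout libraries numbered 2 fell under the minimum of 0.1 set for a pair, and their pairing is unsure. The main fit did not use pairing.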

Additional observations from a re-analysis of the deposited data

How the results depend on the processing

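Of 952 values from alternatives over 40 gene and comparison pairs, 892 kept direction and side of the threshold, 16 lost the call, 14 gained it and 30 changed sign, all but 1 of the last from estimates that had not passed; 19 pairs never changed. The cause was not tested. Genes called among the 8 went from 5 to 3 for CpG in the knockout with both knockout libraries numbered 1 left out, and from 2 to 0 for genotype with CpG on curated transcripts alone. Pairing: with the replicate number as a block within genotype, 1 of the 8 passed the interaction (Il18bp), and 13 genes in all in place of 0. Whether the number pairs the knockout libraries numbered 2 is unsure. That block called 1824 in place of 652 genes for CpG in wild-type and 2591 in place of 1257 in the knockout; a block on number alone called 747 and 1401. Among the 8 the block within genotype changed no wild-type CpG call other than that of Il1r2. It also gave Il1r2 a call for CpG in the knockout (log2 -0.57, edgeR adjusted p = 0.00196). On curated transcripts alone the sign turned for Il18bp with CpG in wild-type (0.44) and for genotype with CpG in Il18bp (0.09) and Il1r2 (-0.02). The Il1r2 genotype difference with CpG was also -0.04 with library-size scaling and -0.02 without both knockout libraries numbered 1. Interaction estimates turned for Il18rap with library-size scaling (-0.04) and without both knockout libraries numbered 1 (-0.01), and for Il1rn without both numbered 3 (-1.2e-03).

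Leaving out 1 library at a time, log2 changes ran across 0 for CpG in wild-type in Il18 (-0.46 to 0.17), Il18bp (-0.17 to 0.03) and Il18rap (-0.2 to 0.01), and in the knockout for Il18rap (-0.19 to 0.05). They did so unstimulated between genotypes for Il1a (-0.04 to 0.88) and Il1rn (-0.02 to 0.23), with CpG for Il1r2 (-0.07 to 0.27), and in the interaction for Il1rn (-0.03 to 0.25), Il1r2 (-0.34 to 0.06) and Il18rap (-0.12 to 0.13). Pathway genes called went from 12 to 21 for CpG in the knockout with the within-genotype block, from 5 to 3 for genotype unstimulated on curated transcripts, and from 2 to 6 (DESeq2) or 4 (filter of 1 CPM) for genotype with CpG. Leaving out 1 library, all genes called ran from 425 to 758 and from 818 to 1347 for CpG in wild-type and knockout cells, and from 278 to 604 and from 234 to 699 for genotype unstimulated and with CpG. Over all genes, counts also moved by over 1.5 times on curated transcripts (425 for CpG in wild-type, 283 and 227 for genotype unstimulated and with CpG), with DESeq2 (782 and 734 for genotype), with only the groups compared (253 for genotype with CpG) and without both knockout libraries numbered 1 (341, unstimulated) or 3 (824, with CpG). Library-size scaling gave 739 higher and 778 lower genes for CpG in the knockout in place of 818 and 439, and 155 and 314 for genotype with CpG in place of 184 and 239.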
